A study of Mus musculus with 20 samples.

Results

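Muscle contraction in the heart rests on myosin, a motor built of heavy chains that carry the ATPase and of light chains that bind the lever arm, and on the proteins that hold the thick filament together. Expression of 7 genes of this kind was followed across the series: the heavy chains Myh6 (α) and Myh7 (β), the ventricular light chains Myl2 and Myl3, the atrial light chains Myl4 and Myl7, and cardiac myosin-binding protein C (Mybpc3). They were taken by name, with every probe set that the platform annotation pairs with exactly that 1 symbol, which gave 11 probe sets for 7 of the 18193 genes that have such a probe set. Myh6 had 2 of them, Myl3 had 3, Myl4 had 2, and the others had 1 each. All 7 genes lay above the expression filter that left 12082 genes for testing.

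The 20 arrays came from the ventricle of C57BL/6 females that had all been ovariectomized at 8 weeks of age and had then carried an Alzet minipump for 4 weeks. Each of the 4 groups held 5 arrays: mice given 16 alpha LE2, named in the labels as an agonist of estrogen receptor alpha; mice given 17 beta estradiol, which activates both classical estrogen receptors; a group with beta in its titles but control solution in its treatment labels, called beta-titled here; and placebo, whose titles say OVX. The estrogens were in cyclodextrin, doses are not given in the labels, and every group lacked the ovaries, so no group with its own ovarian hormones entered. The age in the labels is 8 weeks, which the treatment protocol gives as the age at ovariectomy, and the labels do not say whether atrial tissue or either ventricle was trimmed away. The labels do not tie arrays to animals in so many words, so the p-values measure the spread between these arrays.

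In the mouse ventricle Myh6 is the main adult heavy chain, while Myh7 is the fetal one, with slower ATPase activity, that is held low by thyroid hormone in the adult and returns in pressure overload and failure. Myl2 (regulatory) and Myl3 (essential) are the light chains of the ventricle. Myl7 (regulatory) and Myl4 (essential) are those of the atria, and both are also made in the embryonic ventricle. Mybpc3 binds myosin and titin and restrains the motor heads.

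The heavy chain genes are neighbours. Per the RefSeq table of build GRCm38.p6, Myh6 lies at chr14:54941921-54968017 and Myh7 at chr14:54970684-54994626, with 2666 bases between them, both on the minus strand. Myl2 lies at chr5:122092724-122113473, Myl3 at chr9:110763678-110769802, Mybpc3 at chr2:91118114-91136516, Myl7 at chr11:5896637-5898782 and Myl4 at chr11:104546017-104587215. Promoter windows of 300 bases, 250 before to 50 after the listed start of transcription, were taken from RefSeq (GRCm38.p6) for all 7 genes. Both heavy chain windows are shown because these genes behaved differently on the arrays, and both atrial light chain windows because those genes varied together. Each is written 5′ to 3′ on the gene's own strand, and capitals mark motif matches.
Myh7, chr14:54994577-54994876, minus strand: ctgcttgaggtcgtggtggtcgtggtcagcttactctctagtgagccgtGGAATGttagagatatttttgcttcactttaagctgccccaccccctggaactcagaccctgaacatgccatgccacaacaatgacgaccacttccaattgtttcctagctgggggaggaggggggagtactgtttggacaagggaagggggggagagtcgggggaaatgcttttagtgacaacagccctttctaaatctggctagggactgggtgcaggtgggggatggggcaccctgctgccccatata
Myh6, chr14:54966558-54966857, minus strand: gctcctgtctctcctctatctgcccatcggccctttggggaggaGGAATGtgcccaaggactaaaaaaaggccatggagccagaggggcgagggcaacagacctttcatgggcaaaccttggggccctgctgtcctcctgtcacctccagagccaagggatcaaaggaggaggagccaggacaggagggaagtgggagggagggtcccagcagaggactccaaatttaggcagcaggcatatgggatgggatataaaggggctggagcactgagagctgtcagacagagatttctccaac
Myl7, chr11:5898733-5899032, minus strand: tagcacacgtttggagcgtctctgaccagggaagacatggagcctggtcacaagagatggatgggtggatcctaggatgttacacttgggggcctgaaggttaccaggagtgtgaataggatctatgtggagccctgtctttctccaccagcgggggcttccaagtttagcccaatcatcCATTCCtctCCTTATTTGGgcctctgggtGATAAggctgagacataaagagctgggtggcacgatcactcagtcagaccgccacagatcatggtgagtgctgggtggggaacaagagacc
Myl4, chr11:104550413-104550712, plus strand: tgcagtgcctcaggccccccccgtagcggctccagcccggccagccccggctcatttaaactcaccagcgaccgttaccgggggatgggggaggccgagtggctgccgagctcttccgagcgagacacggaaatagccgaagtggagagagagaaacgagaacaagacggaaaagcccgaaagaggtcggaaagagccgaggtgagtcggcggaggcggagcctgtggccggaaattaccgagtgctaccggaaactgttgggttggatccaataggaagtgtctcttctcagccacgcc
The starts listed for Myh6 and Myl4 lie inside the gene spans given above.

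The search covered 6 motifs on both strands: the MCAT element CATTCC (bound by TEAD factors), GATAA (GATA factors), the nuclear receptor site AGGTCA, the estrogen response element GGTCANNNTGACC, the CArG box and the MEF2 site. Each heavy chain window held 1 MCAT element, read on the opposite strand, at position -201 of the Myh7 window and -206 of the Myh6 window, counted from the start of transcription. The Myl7 window held MCAT at position -70, a CArG box at -61 and GATAA at -41, which do not overlap, and the Myl4 window held no match to any of them. Of the windows not printed, that of Myl3 held MCAT at -177 and -149, a CArG box at -85 and GATAA at -18, that of Mybpc3 held a MEF2 site at -90 and GATAA at -60, and that of Myl2 held GATAA at -210. Among 32851 promoter windows of the same length, MCAT occurred in 14.7%, GATAA in 25.4%, the nuclear receptor site in 16.3%, the full estrogen response element in 0.07%, the CArG box in 1.63% and the MEF2 site in 1.86%. Neither the nuclear receptor site nor the full estrogen response element was found in the 7 windows, which says only that these letters are not there.

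Values are on a log2 scale, so that a difference of 1 is a factor of 2, and a probe set's level is not set against another's, because each binds with its own strength. Spearman correlations between arrays were 0.978 to 0.992 with the exception of estradiol replicate 33, at 0.922 to 0.940. The spread of values was narrowest on beta-titled replicate 32 (SD 1.30 over all probe sets, with 1.48 at the widest). It was only slightly narrower there than on beta-titled replicate 31 (SD 1.32), and by correlation only estradiol replicate 33 stood apart. Estradiol replicate 33 and beta-titled replicate 32 are called both arrays that stand apart below. Results are given with and without them where they bear on the result. A 95% confidence interval reached 0.21 log2 units to either side for the median gene tested, a precision that the number of arrays limits. As markers of the labelled tissue, the cardiomyocyte genes Tnni3 and Tnnt2 averaged 14.32 and 14.34 over all arrays, near the top of the measured range of 5.07 to 15.31. The ventricular transcription factors Irx4 and Hey2 averaged 7.70 and 7.10, just above the filter at 6.93.

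Stimulation of receptor alpha was first compared with placebo. Of the 7 genes, 1 passed in limma's moderated test, against 0.223% of all genes tested. The threshold was 0.05 on p-values adjusted by Benjamini-Hochberg over the 12082 genes. It was Myh7, and it rose. On the 5 arrays of 16 alpha LE2, Myh7 read 11.12, 10.47, 10.84, 11.03 and 11.58, against 9.29, 9.91, 9.31, 10.45 and 9.34 on the placebo arrays. Every 16 alpha LE2 array lay above every placebo array, although the lowest of the first (10.47) and the highest of the second (10.45, replicate 34) nearly touched. The means were 11.01 ± 0.40 and 9.66 ± 0.51 (SD, n = 5 each), a log2 change of 1.35 ± 0.22 (SE; 95% interval 0.89 to 1.81), or 2.55-fold. The adjusted p was 0.0073 (limma), which placed Myh7 at rank 4 of all genes tested and among the 3 called genes that rose (0.0248% of those tested). Its groups did not overlap, as was so for 3.28% of genes.

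**Figure D1:**
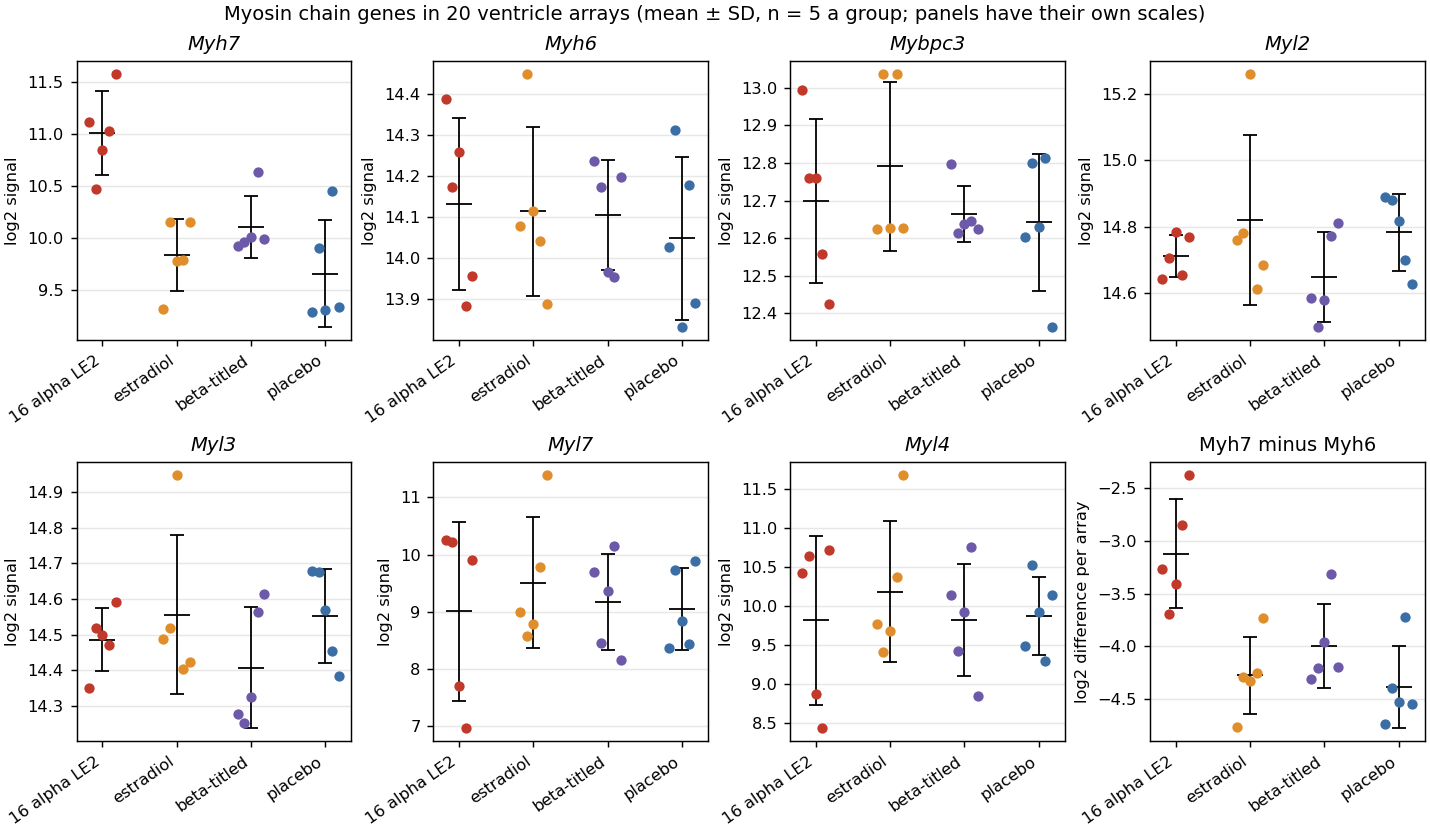
Log2 signal of each gene on every array, with the group mean and SD (n = 5 a group), and the Myh7 minus Myh6 difference per array in the last panel. The 16 alpha LE2 arrays stand above all placebo and estradiol arrays for Myh7 and for the difference, while the groups overlap in the other panels and the atrial light chains spread over several log2 units.

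No change of Myh6, the other heavy chain, passed the test. Its main probe set averaged 14.13 ± 0.21 with 16 alpha LE2 and 14.05 ± 0.20 with placebo (SD, n = 5 each). The difference was 0.08 ± 0.11 (95% interval -0.14 to 0.31, limma adjusted p = 0.895). This probe set lies in the upper part of the measured range, and whether its signal is compressed there was not tested. The bright probe set that also carries the Myh7 symbol gave 0.21 ± 0.16. On single arrays Myh6 ran over 13.88 to 14.39 with 16 alpha LE2 and over 13.83 to 14.31 with placebo. The other 5 genes changed by -0.07 to 0.06: Mybpc3 by 0.06, Myl7 by -0.05, Myl4 by -0.06, Myl3 by -0.07 and Myl2 by -0.07, none passing (the lowest adjusted p of the 6 genes other than Myh7 was 0.894). The median change of the 7 genes was -0.05 and that of all genes tested was -0.03.

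Markers of other cells also moved in this comparison. Of 11 fibroblast markers 10 were lower with 16 alpha LE2, and their mean level ran over 9.95 to 10.05 on those arrays and over 10.10 to 10.75 on placebo arrays. The collagen gene Col3a1 was the 1 that passed, with a mean of 9.07 ± 0.31 against 10.56 ± 0.55 and a limma adjusted p of 0.0011. Endothelial markers were lower in 10 of 11 (median change -0.30), with mean levels of 9.45 to 9.85 and 9.77 to 10.01. They were also lower than with placebo in 8 of 11 with estradiol (median -0.10) and in 10 of 11 in the beta-titled group (-0.13). With 16 alpha LE2, 6 of 6 red blood cell markers were higher than with placebo, at 8.84 to 9.97 and 8.57 to 8.94. Among them Slc4a1, the red cell anion exchanger, rose (log2 change 0.57 ± 0.11, limma adjusted p = 0.0256). Cardiomyocyte markers divided 5 higher and 7 lower, with a median of -0.04. The part of these shifts in the Myh7 result was not tested. In whole tissue, fewer cells of a type and less RNA per cell cannot be told apart.

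With estradiol, none of the 7 genes passed against placebo (limma), none had an unadjusted p under 0.05 (9.63% of all genes did), and 0% of all genes tested were called. Myh7 read 9.32, 10.15, 9.78, 9.79 and 10.15 with estradiol, against the placebo values above. All 5 fell inside the placebo range. The means were 9.84 ± 0.35 and 9.66 ± 0.51 (SD, n = 5 each), a difference of 0.18 ± 0.22 (95% interval -0.28 to 0.63, limma adjusted p = 0.693). The interval leaves out a rise as large as the 1.35 measured with 16 alpha LE2. All 7 genes had positive estimates, with a median of 0.15 against -0.03 for all genes, but the signs did not hold when single arrays were left out. Without estradiol replicate 33 Myl2 and Myl3 turned to -0.07 and -0.09, without replicate 35 Myl4 and Myl7 turned to -0.06 and -0.01, and without replicate 30 Myh6 turned to -0.02.

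Set against each other, both agonists differed in Myh7 by 1.17 ± 0.22 (16 alpha LE2 minus estradiol; 95% interval 0.72 to 1.63, 2.25-fold), with means of 11.01 ± 0.40 and 9.84 ± 0.35 (SD, n = 5 each). No 16 alpha LE2 array overlapped an estradiol array, the nearest values being 10.47 and 10.15. Groups did not overlap for 0.753% of genes in this comparison. The limma adjusted p was 0.0507, just past the threshold, so that 0 of 7 genes were called, against 0.0166% of all genes, while 1 of the 7 (Myh7) had an unadjusted p under 0.05, as did 5.19% of all genes. The call was made with a stricter expression filter (limma adjusted p = 0.0313) or with the replicate number as a block (limma adjusted p = 0.0108). The labels do not say whether these numbers pair arrays. It was also made on leaving out beta-titled replicate 35 (0.0439) or placebo replicate 33 (0.0412), 34 (0.0217) or 36 (0.0485). Without both arrays that stand apart the limma adjusted p was 0.190. Both comparisons with placebo share the placebo arrays, and the doses are unknown, so the agonists were matched for duration and not for a known dose. The other 6 genes differed by -0.50 (Myl7) to 0.02 (Myh6), none passing. Of the marker genes, 11 of 11 for fibroblasts and 10 of 11 for endothelium were lower with 16 alpha LE2 than with estradiol, and 5 of 6 for red blood cells were higher, none of them called. The mean fibroblast level was 9.95 to 10.05 with 16 alpha LE2 and 10.23 to 10.46 with estradiol, and its part in the Myh7 difference was not tested.

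The beta-titled group was intermediate in Myh7. Its arrays read 9.93, 9.97, 10.01, 10.64 and 9.997, with replicate 35 apart from 4 arrays between 9.93 and 10.01. The mean was 10.11 ± 0.30, against 9.66 ± 0.51 with placebo (SD, n = 5 each), and all 5 arrays were above the placebo mean. The difference of 0.45 ± 0.22 had a 95% interval of -0.01 to 0.90 and did not pass (limma adjusted p = 0.707). None of the 7 genes passed in this comparison or had an unadjusted p under 0.05, against 0% and 5.7% of all genes. Changes of the other 6 genes ran between -0.15 (Myl3) and 0.11 (Myl7).

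Between 16 alpha LE2 and the beta-titled group, Myh7 differed by 0.90 ± 0.22 (95% interval 0.45 to 1.36, 1.87-fold), with 4 of 5 16 alpha LE2 arrays above the highest beta-titled array. The limma adjusted p of 0.121 did not pass, so 0 of 7 genes were called, against 0.174% of all genes, and 1 had an unadjusted p under 0.05, as did 5.6% of all genes. Markers moved here too: 9 of 11 fibroblast markers were lower with 16 alpha LE2 (mean levels of 9.95 to 10.05 against 10.37 to 10.50), with Col3a1 called (9.07 ± 0.31 against 10.64 ± 0.33, limma adjusted p = 0.00042), and 9 of 11 endothelial markers were lower. All 6 red blood cell markers were higher (8.84 to 9.97 against 8.60 to 8.88), as were 12 of 12 cardiomyocyte markers (13.25 to 13.36 against 13.11 to 13.31), none of them called. The same 12 cardiomyocyte markers were also higher with estradiol than in the beta-titled group. In the beta-titled group 1 of them was higher and 11 lower than with placebo. The part of these marker shifts in the Myh7 difference was not tested.

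Between estradiol and the beta-titled group the Myh7 difference was -0.27 ± 0.22 (95% interval -0.73 to 0.19, limma adjusted p = 0.925), with 0 of 7 genes and 0% of all genes called and none of the 7 at an unadjusted p under 0.05 (3.83% of all genes). In the order of their Myh7 means, then, 16 alpha LE2 came first, followed by the beta-titled group, estradiol and placebo, and the neighbours among the last 3 did not differ beyond their spread. The gap between the first 2 was not called.

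**Figure D2:**
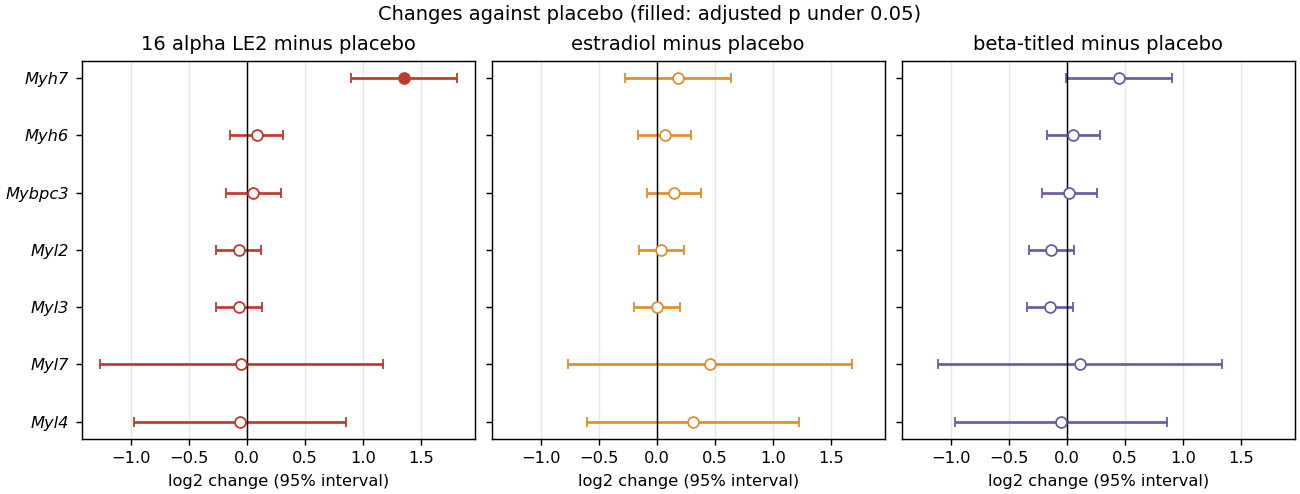
Log2 change of each gene against placebo with its 95% confidence interval from the fit to all 20 arrays, for 16 alpha LE2, estradiol and the beta-titled group. Only Myh7 with 16 alpha LE2 is filled (adjusted p under 0.05), and the intervals of Myl7 and Myl4 are the widest of the 7 genes in all 3 panels.

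The heavy chains share much of their sequence, so each probe set was looked at by itself, with p-values adjusted over all probe sets. The 1 probe set of Myh7 alone (1448553_at) gave a change of 1.35 with 16 alpha LE2 against placebo and a limma adjusted p of 0.0126. The second probe set of Myh6 (1417729_at) lay near the bottom of the range, at 6.09 to 7.65, and gave 0.26 ± 0.24. A further 2 probe sets carry both symbols and were left out by the choice of members. The first, 1448554_s_at, was bright at 13.21 to 14.25 and gave 0.21 ± 0.16. The second, 1448827_s_at, was dim at 6.13 to 8.08 and gave 0.52 ± 0.29. Neither passed in this comparison (limma adjusted p = 0.787 and 0.715).

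Across the 20 arrays the bright shared probe set ran with Myh6 (1448826_at), with Pearson's r = 0.947 and Spearman's rho = 0.943, and not with Myh7, with r = 0.285 and rho = 0.308. The adjusted permutation p over the 10 pairs of these 5 probe sets was 5e-05, from the smallest p that 100000 permutations can give, for the first and 0.247 for the second. Leaving out the 2 arrays farthest from the median gave r = 0.917 and 0.332. The dim shared probe set ran with the dim Myh6 probe set, with r = 0.962 and rho = 0.934 (adjusted permutation p = 5e-05, r = 0.954 without the 2 farthest arrays). Its relation with Myh7 was weaker, with r = 0.487 and rho = 0.454 (adjusted permutation p = 0.0422 and 0.0661), and r was 0.298 without the 2 farthest arrays, both of 16 alpha LE2, so that the pooled relation rests in part on them. On values centred within groups r was 0.409 (adjusted permutation p = 0.130).

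**Figure D3:**
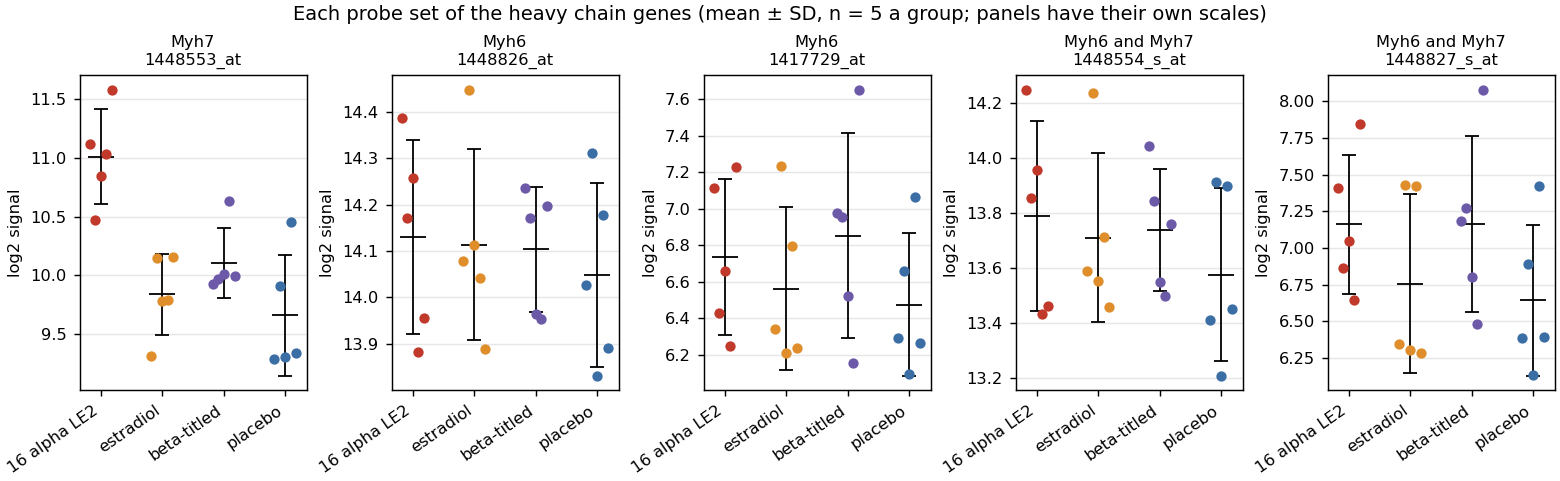
Log2 signal of the 5 probe sets annotated to Myh7, to Myh6 or to both, on every array, with the group mean and SD (n = 5 a group). In the Myh7 probe set the 16 alpha LE2 arrays lie above all estradiol and placebo arrays and overlap the beta-titled group through its replicate 35, while in the other 4 panels they overlap every group.

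The Myh7 signal relative to that of Myh6 was taken as a difference of log2 values on each array. Since it joins 2 probe sets of unequal strength, its absolute size has no meaning as a ratio of transcripts, and only arrays are compared. No test was made on it. With 16 alpha LE2 it was -3.27, -3.70, -3.41, -2.85 and -2.37, with estradiol -4.76, -4.30, -4.33, -4.25 and -3.73, in the beta-titled group -4.31, -4.20, -3.96, -3.32 and -4.20, and with placebo -4.74, -4.40, -4.53, -3.73 and -4.55. All 5 arrays of 16 alpha LE2 were above all arrays of placebo and of estradiol, by 0.028 and 0.035 at the closest, and overlapped the beta-titled group through its replicate 35.

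The group means were -3.12 ± 0.52 with 16 alpha LE2, -4.28 ± 0.37 with estradiol, -4.00 ± 0.40 in the beta-titled group and -4.39 ± 0.39 with placebo (SD, n = 5 each). Relative to placebo the difference was thus 1.27 higher with 16 alpha LE2, 0.11 higher with estradiol and 0.39 higher in the beta-titled group, against a pooled SD of 0.42. The estradiol value turned to -0.023 without estradiol replicate 35, and the beta-titled value was 0.22 without beta-titled replicate 35. The 1.27 is the Myh7 change of 1.35 less the Myh6 change of 0.08. The value 1.15 separated 16 alpha LE2 and estradiol, and 0.88 separated 16 alpha LE2 and the beta-titled group.

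Thick filament partners of these genes were read as a list. Of 23 further genes of the thick filament and its assembly 20 were tested, and in all 6 comparisons none passed (limma). With 16 alpha LE2 against placebo 13 were higher and 7 lower, with a median change of 0.02. Myh7b, a slow heavy chain gene that hosts a microRNA, read 7.30 ± 0.33 with 16 alpha LE2 and 7.12 ± 0.18 with placebo (SD, n = 5 each; limma adjusted p = 0.806). Of 26 thin filament and Z disc genes none passed in any comparison, with 10 higher and 16 lower for 16 alpha LE2 against placebo. Against the beta-titled group 23 were higher and 3 lower with 16 alpha LE2 (median 0.07) and 24 higher and 2 lower with estradiol (median 0.11). These share the beta-titled arrays, in which 3 of the 26 were higher and 23 lower than with placebo (median -0.14 against -0.04 for all genes). Of 16 myosins of skeletal muscle, smooth muscle and other cells 11 were tested and none passed in any comparison.

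No change of Mybpc3 passed in any comparison. Over all arrays it ran from 12.36 to 13.04, and its group means were 12.70 ± 0.22 with 16 alpha LE2, 12.79 ± 0.22 with estradiol, 12.66 ± 0.08 in the beta-titled group and 12.64 ± 0.18 with placebo (SD, n = 5 each). Its largest change against placebo was 0.15 ± 0.11, with estradiol (95% interval -0.09 to 0.38, limma adjusted p = 0.542). On the 5 estradiol arrays it read 12.62, 13.04, 12.63, 13.04 and 12.63, so that replicates 30 and 34 stood above the other 3. Across the 20 arrays Mybpc3 went with Myh6 (r = 0.704, rho = 0.647; permutation p adjusted over 36 pairs of the 7 genes, Sln and Nppa = 0.00418 and 0.0201). It was 0.720 on values centred within groups and 0.528 without the 2 arrays farthest from the median of Myh6.

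The ventricular light chains read near the top of the scale on every array. Myl2 ran over 14.50 to 15.26 and Myl3 (1427768_s_at) over 14.25 to 14.95 on the 20 arrays, and the 2 other probe sets of Myl3 over 14.11 to 14.76 and 13.48 to 13.99. Myl2 averaged 14.71 ± 0.06 with 16 alpha LE2, 14.82 ± 0.25 with estradiol, 14.65 ± 0.13 in the beta-titled group and 14.78 ± 0.12 with placebo (SD, n = 5 each). Myl3 averaged 14.49 ± 0.09 with 16 alpha LE2, 14.56 ± 0.22 with estradiol, 14.41 ± 0.17 in the beta-titled group and 14.55 ± 0.13 with placebo. The 95% intervals of all 6 of their changes against placebo lay within -0.34 to 0.23, and none passed. Estradiol replicate 33, the array that correlates least with the others, held the highest value of both genes.

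Both ventricular light chains varied together, with r = 0.967 and rho = 0.955 over the 20 arrays (permutation p adjusted over 36 pairs = 9e-05, from the smallest p that the permutations can give), and r = 0.945 without the 2 arrays farthest from the median, one of which is estradiol replicate 33. As a description, the 5 tested genes with the highest r to Myl2 over the 20 arrays were Mb (myoglobin, 0.987), Myl3 (0.967), Tnni3 (cardiac troponin I, 0.953), Atp2a2 (the calcium pump SERCA2, 0.948) and Fabp3 (a fatty acid binding protein, 0.948). These are bright genes measured on the same arrays, and what makes them vary together was not tested. Neither Myl2 nor Myl3 had a pair with any other of the 9 genes that passed.

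The atrial light chains varied widely from array to array. With 16 alpha LE2 Myl7 read 10.25, 10.23, 7.69, 6.96 and 9.91, with estradiol 8.998, 8.58, 8.79, 9.79 and 11.40, in the beta-titled group 9.70, 8.46, 9.37, 10.15 and 8.15, and with placebo 8.36, 9.73, 8.85, 8.44 and 9.89. The highest array was estradiol replicate 35 and the lowest was 16 alpha LE2 replicate 33, which lay 4.44 log2 units apart. All 4 groups overlapped, with the widest range in 16 alpha LE2 and the narrowest in placebo.

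Myl4 followed the same arrays. With 16 alpha LE2 it read 10.42, 10.64, 8.87, 8.44 and 10.72, with estradiol 9.77, 9.42, 9.68, 10.38 and 11.68, in the beta-titled group 10.14, 9.43, 9.93, 10.75 and 8.85, and with placebo 9.49, 10.52, 9.92, 9.30 and 10.15. Replicates 33 and 32 were the lowest of the 16 alpha LE2 arrays for both genes, and estradiol replicate 35 was the highest array of the series for both. The second probe set of Myl4 (1457126_at) was dim and nearly flat, at 7.20 to 7.84.

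No group difference in either gene passed. Against placebo, Myl7 changed by -0.05 ± 0.59 with 16 alpha LE2, 0.46 ± 0.59 with estradiol and 0.11 ± 0.59 in the beta-titled group, and Myl4 by -0.06 ± 0.44, 0.31 ± 0.44 and -0.05 ± 0.44 (SE). At this spread a change of 1 log2 unit or more could go uncalled. The 95% interval of Myl7 with 16 alpha LE2 ran over -1.27 to 1.18. That interval is not adjusted over the genes tested, so a call would need a change larger than its reach. Both estradiol values rest on replicate 35, without which they were -0.01 for Myl7 and -0.06 for Myl4. The spread within groups, pooled over the 4 groups, was 1.12 for Myl7 and 0.83 for Myl4, larger than for 99.98% and 99.93% of the genes tested. The median gene had a pooled SD of 0.16, and Myl2 (0.16) and Myl3 (0.16) were near it, while Mybpc3 (0.19) and Myh6 (0.19) were above 66.8% and 69.4% of genes. Myh7 was at 0.40, larger than 98.9% of genes.

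**Figure D4:**
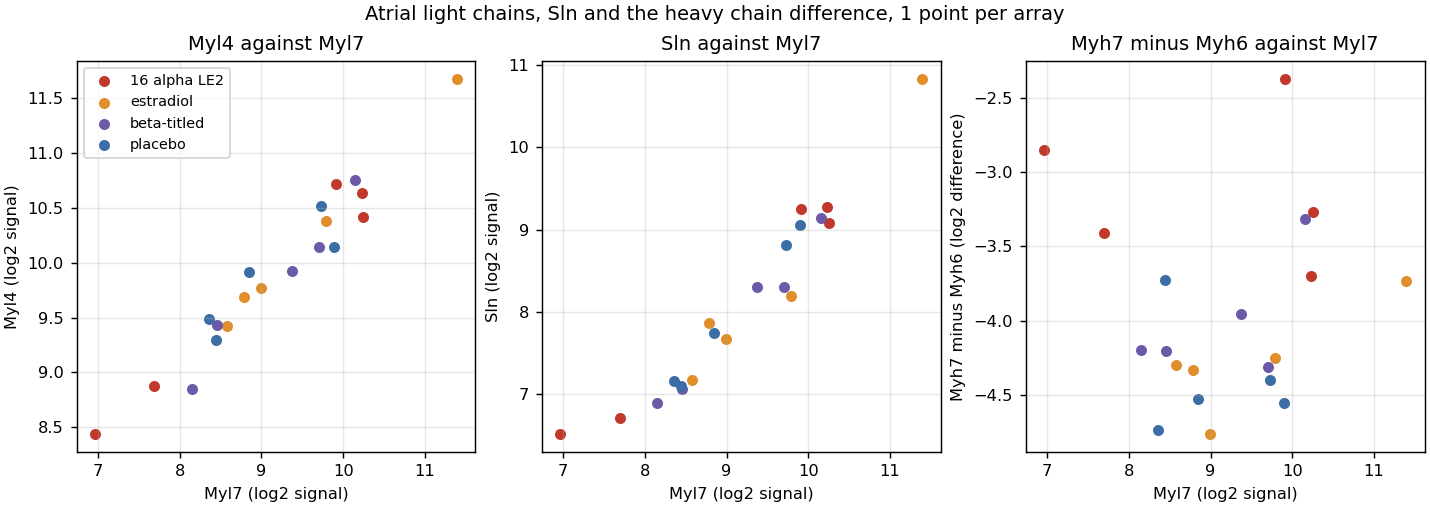
Each point is 1 array, coloured by group: Myl4 and Sln against Myl7 (log2 signal), and Myh7 minus Myh6 (log2 difference) against Myl7. Myl4, Myl7 and Sln lie close to a line across all 4 groups, while the heavy chain difference shows no such line (r = 0.045).

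The atrial light chains varied from array to array together with Sln, which encodes sarcolipin, an inhibitor of the calcium pump found mainly in atria. Pearson's r over the 20 arrays was 0.975 for Myl4 with Myl7, 0.963 for Myl7 with Sln and 0.962 for Myl4 with Sln, and Spearman's rho was 0.958, 0.968 and 0.965 (adjusted permutation p = 9e-05 for each). Without the 2 farthest arrays r was 0.956, 0.966 and 0.947, and on values centred within groups it was 0.976, 0.972 and 0.968. As a description, the genes most like Myl7 after these were Mybphl (myosin-binding protein H-like, r = 0.777), Cyp2e1 (0.714) and Atxn7l3 (0.688). Those most like Myl4 were Mybphl (0.802), Cyp2e1 (0.762) and Dkk3 (0.684). Mybphl and Dkk3 were on the atrial marker list used here.

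Nppa, the atrial natriuretic peptide, which ventricles also make under load, had r = 0.405 with Myl7 and 0.409 with Myl4 (rho = 0.514 and 0.505), and neither passed over the 36 pairs (adjusted permutation p = 0.309 for both r). The mean level of 13 tested atrial markers other than Myl4 and Myl7 ran over 8.62 to 8.98 with 16 alpha LE2, 8.70 to 9.30 with estradiol, 8.56 to 9.08 in the beta-titled group and 8.67 to 8.96 with placebo. Of them, 7 were higher and 6 lower with 16 alpha LE2 against placebo and none passed. Bmp10, also on the atrial marker list, averaged 6.75 over all arrays, below the filter, and was not tested.

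**Figure D5:**
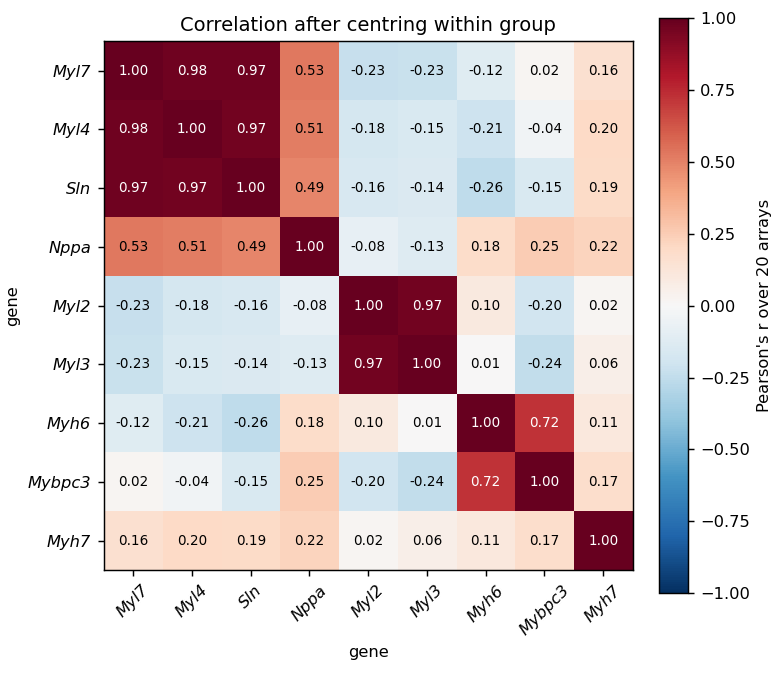
Pearson's r between the 7 genes, Sln and Nppa over 20 arrays, after the mean of each group was taken from its arrays. The 3 blocks are Myl7, Myl4 and Sln (0.97 to 0.98), Myl2 and Myl3 (0.97), and Myh6 and Mybpc3 (0.72), with Myh7 outside all of them (at most 0.22).

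The relation of the heavy chain difference to the atrial light chains was examined over the 20 arrays as 4 relations. Myh7 minus Myh6 had r = 0.090 with Myl4 (rho = 0.120) and 0.045 with Myl7 (rho = 0.150), with permutation p of 0.706 and 0.851 for r, 0.851 for both after adjustment over the 4. On values centred within groups r was 0.283 and 0.204, and without the 2 arrays farthest from the median of the difference, 16 alpha LE2 replicates 33 and 34, it was 0.236 and 0.277. With Sln r was 0.190 (rho = 0.138, adjusted permutation p = 0.847). With Nppa it was 0.405 (rho = 0.356, adjusted permutation p = 0.313). None passed.

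With the level of Sln on each array as a covariate, a step added after the data were examined, the Myh7 change with 16 alpha LE2 against placebo was 1.34 (limma adjusted p = 0.00916). Sln differed by 0.19 ± 0.64 between these groups and had r = 0.124 with Myh7, so this step could move the Myh7 change little. The part of atrial tissue in that change was not tested. Without both arrays that stand apart the Myh7 change was 1.35 (limma adjusted p = 0.016).

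As a description of likeness across arrays, the 5 tested genes with the highest r to Myh7 were Mknk2 (a kinase of the translation factor eIF4E, 0.754), Fam214a (0.748), Fah (a tyrosine breakdown enzyme, 0.727), Zfp697 (0.726) and Cnksr3 (0.705). On values centred within groups these were 0.632, 0.461, 0.501, 0.531 and 0.414. Among the members, Myh6 had r = 0.170 with Myh7, Mybpc3 0.095, Myl4 0.036 and Myl7 0.015, while Myl3 had -0.101 and Myl2 -0.158.

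Genes known to act on the heavy chain switch were taken as another list, with thyroid hormone receptors, deiodinases, TEAD, MEF2, GATA and NFAT factors and others. Of 34 listed genes 30 were tested and none passed in any of the 6 comparisons. With 16 alpha LE2 against placebo 7 were higher and 23 lower, with a median of -0.08 against -0.03 for all genes. Thra, the main thyroid hormone receptor of the heart, read 8.47 ± 0.21 with 16 alpha LE2 and 8.48 ± 0.15 with placebo (SD, n = 5 each; limma adjusted p = 0.992). Thrb averaged 6.45, Esr1 6.89 and Esr2 6.54 over all arrays, all below the filter, and were not tested.

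Fetal and hypertrophic genes often rise with Myh7 under load, and 16 of 19 listed were tested. Against placebo none passed with 16 alpha LE2, with 7 higher and 9 lower. Of these 16 genes, 6 had an unadjusted p under 0.05 (limma). Nppb, the B-type natriuretic peptide gene, read 12.87, 12.99, 13.28, 12.91 and 13.19 with 16 alpha LE2, 12.96, 13.06, 12.70, 12.12 and 12.22 with estradiol, 12.56, 11.73, 12.29, 12.002 and 11.76 in the beta-titled group and 12.90, 12.63, 12.35, 12.38 and 12.42 with placebo. Nppb was higher with 16 alpha LE2 than in the beta-titled group, and these arrays did not overlap (2.28% of genes). The means were 13.05 ± 0.18 and 12.07 ± 0.35 (SD, n = 5 each). The log2 difference was 0.98 ± 0.17 (limma adjusted p = 0.0156). Against placebo, 16 alpha LE2 differed by 0.51 ± 0.17 (limma unadjusted p = 0.0073, adjusted p = 0.298). All 5 arrays of 16 alpha LE2 lay above the placebo mean, and 4 lay above the highest placebo array. The beta-titled group differed from placebo by -0.47 ± 0.17 (limma adjusted p = 0.707). The called difference thus joins a mean above placebo and a mean below it, neither of which passed against placebo. Estradiol minus beta-titled was 0.54 ± 0.17 and did not pass (limma adjusted p = 0.925).

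Nppa differed by 0.41 ± 0.19 between 16 alpha LE2 and placebo (12.50 ± 0.31 and 12.10 ± 0.16; SD, n = 5 each). The limma unadjusted p was 0.039 and the adjusted p was 0.532. Acta1, the skeletal α-actin that the fetal ventricle makes, differed by -0.13 ± 0.24 (10.44 ± 0.53 and 10.56 ± 0.36; limma adjusted p = 0.930). Of the 4 fetal genes described here, then, Myh7 was the 1 that passed against placebo, and whether its change differs from those of Nppa, Nppb and Acta1 was not tested. Of the remaining lists, no gene passed in any of the 6 comparisons among the estrogen receptor genes and their relatives (4 tested) or the markers of ventricular myocytes (10), conduction cells (4), skeletal muscle (8), smooth muscle and pericytes (11), macrophages (9) and brown fat or mesothelium (1).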

How the data were processed

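Biotinylated RNA of 20 ventricle samples was hybridised to Affymetrix mouse arrays, per the labels' protocols. The deposited table holds a log2 value per probe set (45101) and array. That scale was inferred from the range of the values, and the software that summarized and scaled them is not given in the sources used here. No further scaling was applied, so any difference between arrays that the authors left in the values remains in them.

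After removal of 64 control probe sets, genes were named from the 34945 probe sets with 1 symbol, and each gene was represented by its brightest probe set above the median of all probe sets (6.93). All 20 arrays were fitted with limma 3.58.1 in R 4.3.3 (group means, intensity trend, Benjamini-Hochberg over 12082 genes). A second fit without a filter took every probe set by itself. Correlations used 100000 two-sided permutations. The fit and the permutations were tested on simulated data. Figures were drawn with matplotlib 3.10.9.

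The members, 17 gene and marker lists, alternatives and tests were chosen with earlier results of these data known. All members were named, with called members of each list (at most 4), the 5 genes most alike to Myh7, Myl4, Myl7 and Myl2, and Nppa, Nppb, Sln, Acta1, Myh7b, Thra, Thrb, Esr1 and Esr2. Further genes (Tnni3, Tnnt2, Irx4, Hey2 and Bmp10) were named as tissue checks. Alternatives covered the filter, probe set summary, scaling, array weights, groups fitted, replicate block, pooled controls and each array left out.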

Additional observations from a re-analysis of the deposited data

Results flagged for a closer look

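Of 32 sets of 5 arrays checked (each member, or the Myh7 minus Myh6 difference, in each group), 4 held an array whose gap to its nearest neighbour was over 0.71 of the group's range, which chance gives in about 1 in 20 groups. Myh7 was 10.64 on beta-titled replicate 35, against 9.93 to 10.01 on the other 4 arrays of that group. Leaving that array out, the Myh7 change of the beta-titled group against placebo was 0.32. Estradiol replicate 33 was high in both ventricular light chains, with 15.26 for Myl2 (14.61 to 14.78 on the other 4) and 14.95 for Myl3 (14.40 to 14.52 on the other 4). This is the array with the lowest correlations to the others. Mybpc3 was 12.80 on beta-titled replicate 31, against 12.61 to 12.65 on the other 4 arrays. What sets these arrays apart was not tested.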

How the results depend on the processing

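The count of called members was 1 for 16 alpha LE2 against placebo in all 32 alternatives run, and the Myh7 change kept its direction and its call, at 1.13 to 1.55 with a limma adjusted p of 0.0005 to 0.0469, highest when only the 2 groups compared were fitted. For 16 alpha LE2 against estradiol the count of 0 became 1 (Myh7) with the stricter filter, with the replicate block (limma adjusted p = 0.0108) and in 4 of 20 fits that left out 1 array, whose counts ranged over 0 to 1. Its adjusted p over all 31 alternatives ran over 0.0108 to 0.269. The counts of 0 in the other 4 comparisons did not move in the 31 or 32 alternatives run for each. Deviations of same-numbered arrays had r of -0.35 to 0.51 over 17 pairs. The labels do not say what the numbers mark, so whether they pair arrays is not settled by these values. The block changed no other call. The smallest adjusted p in any alternative for a member other than Myh7 was 0.360. The number of arrays limits what can be seen: at the spread of the atrial light chains, a change of 1 log2 unit or more could go uncalled.

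Uncalled changes whose sign turned are given by setting; their cause was not tested. With array weights, these were Myh6 -0.015 and Mybpc3 -0.0068 (16 alpha LE2 against placebo), Myh6 -0.0023, Myl2 -0.093 and Myl3 -0.12 (estradiol against placebo), Myh6 -0.030 and Mybpc3 -0.026 (beta-titled against placebo) and Myh6 -0.012 and Myl3 0.030 (16 alpha LE2 against estradiol). With quantile normalization, these were Myl4 0.057 and Myl7 0.050 (16 alpha LE2 against placebo), Myl3 -0.0084 (estradiol against placebo), Myl4 0.094 (beta-titled against placebo), Myh6 -0.057, Myl2 -0.029, Myl3 -0.026 and Mybpc3 -0.059 (16 alpha LE2 against beta-titled) and Myh6 -0.090 and Myl3 -0.0012 (estradiol against beta-titled). With the replicate block, these were Mybpc3 -0.055 (16 alpha LE2 against placebo), Myh7 -0.015, Myl4 -0.23 and Myl7 -0.26 (estradiol against placebo), Myl7 -0.17 (beta-titled against placebo), Myh6 -0.057 (16 alpha LE2 against estradiol), Myh6 -0.092, Myl4 0.033 and Mybpc3 -0.11 (16 alpha LE2 against beta-titled) and Myh6 -0.035 and Myl7 -0.089 (estradiol against beta-titled). With probe sets averaged per gene, these were Myl4 0.014 (16 alpha LE2 against placebo), Myl3 -0.037 (estradiol against placebo), Myl4 0.028 (beta-titled against placebo), Myh6 -0.046 (16 alpha LE2 against beta-titled) and Myh6 -0.14 (estradiol against beta-titled). With arrays centred on their median, these were Myl3 -0.031 (estradiol against placebo), Mybpc3 -0.013 (beta-titled against placebo) and Myl4 0.0081 (16 alpha LE2 against beta-titled). With placebo and beta-titled arrays pooled, these were Myl3 0.0064 (16 alpha LE2 against placebo) and Myh7 -0.045 (estradiol against placebo). With Sln as a covariate, these were Myl7 -0.018 (estradiol against beta-titled). Without both arrays that stand apart, these were Myl2 -0.073 and Myl3 -0.094 (estradiol against placebo), Myl4 0.044 (beta-titled against placebo) and Myl2 0.0020 and Myl3 0.028 (16 alpha LE2 against estradiol).

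On leaving out 1 array at a time, signs also turned. For 16 alpha LE2 against placebo the ranges were Myl4 -0.28 to 0.29, Myl7 -0.36 to 0.47 and Mybpc3 -0.017 to 0.13. For estradiol against placebo the ranges were Myh6 -0.017 to 0.13, Myl2 -0.073 to 0.088, Myl3 -0.094 to 0.042, Myl4 -0.063 to 0.50 and Myl7 -0.014 to 0.69. For beta-titled against placebo the ranges were Myl4 -0.29 to 0.19, Myl7 -0.14 to 0.36 and Mybpc3 -0.047 to 0.065. For 16 alpha LE2 against estradiol the ranges were Myh6 -0.047 to 0.10, Myl2 -0.16 to 0.0020, Myl3 -0.11 to 0.028, Myl4 -0.59 to 0.0055 and Myl7 -0.81 to 0.0091. For 16 alpha LE2 against beta-titled the ranges were Myh6 -0.037 to 0.089, Myl4 -0.25 to 0.34, Myl7 -0.47 to 0.36 and Mybpc3 -0.039 to 0.10. For estradiol against beta-titled the ranges were Myh6 -0.074 to 0.066, Myl4 -0.0090 to 0.60 and Myl7 -0.13 to 0.59. The correlation of Myh7 minus Myh6 ran over -0.061 to 0.33 with Myl4, -0.062 to 0.31 with Myl7 and 0.35 to 0.49 with Nppa, the last passing at an unadjusted p under 0.05 in 2 of 20 fits and, at 0.47, with probe sets averaged per gene. The group difference in Myh7 minus Myh6 against placebo ran over 1.07 to 1.43 with 16 alpha LE2, -0.083 (placebo and beta-titled arrays pooled) to 0.28 with estradiol and 0.22 to 0.56 in the beta-titled group.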
